A study of Mus musculus with 38 samples.

Results

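The histone genes described here are the 78 protein-coding genes, of 54532 genes counted, whose symbols begin with Hist1h, Hist2h, Hist3h or Hist4h, or with H2af or H3f3. The rule used names and biotype only, and no measured value. The first kind of symbol marks the 67 replication-dependent histone genes and the second marks 11 genes of replacement variants. Reads were counted per gene in 38 libraries of poly-A selected RNA from oligodendrocyte precursor cells (OPCs), the dividing glial progenitors that give rise to myelinating oligodendrocytes. Cells were panned from forebrains of P6-7 mice by removal of lectin-binding microglia and endothelial cells and capture with an antibody against PDGFRα, and 2 mice were pooled for each library.

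KO libraries came from NG2:Cre+;Bmal1fl/fl mice and WT libraries from NG2:Cre-;Bmal1fl/fl mice, so both genotypes carried floxed Bmal1 alleles and no group carried Cre with intact Bmal1. Bmal1 encodes a transcription factor of the circadian clock. Cre was driven by the promoter of NG2 (Cspg4) from embryonic life and removed the part of Bmal1 that encodes its DNA-binding domain, for which the labels call the model a hypomorph. Mice lived in equal spans of light and dark, and cells were taken at 4 zeitgeber times (ZT, in hours): ZT0, when lights came on, ZT6 in the light, ZT12, when they went off, and ZT18 in the dark. KO groups held 4, 7, 4 and 4 libraries and WT groups 4, 5, 6 and 4 libraries in this order of times. No drug was given.

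Histone proteins package DNA into nucleosomes. Replication-dependent histones are made in S phase from clustered genes without introns, and their mRNAs normally end in a short stem-loop, bound by the protein SLBP, in place of a poly-A tail. Replacement variants are made throughout the cell cycle, are exchanged into chromatin outside replication, and have polyadenylated mRNAs. A library selected with poly-T beads therefore holds the variant mRNAs by design, and the replication-dependent ones only as far as some of their transcripts carry a tail or are carried along.

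Several features of the whole set of libraries bear on the values below. Library totals lay between 19.4 and 39.01 M (mega) counts and had 25.9 M as their median. Genes of ribosomal RNA took 0.0848 to 0.263% of counts in 8 libraries and 0.409 to 1.34% in the other 30. The 8 low-rRNA libraries were all 4 KO ZT18 libraries, KO ZT6 replicate 7 and WT ZT12 replicates 4 to 6, so at ZT18 this difference and genotype cannot be told apart. The labels state that both sexes were pooled, but 13 libraries held RNA of a single sex. At ZT0 these were 1 of 4 KO and 1 of 4 WT libraries, and at ZT6 3 of 7 and 1 of 5. At ZT12 they were 0 of 4 KO and 4 of 6 WT libraries, and at ZT18 1 of 4 and 2 of 4. Arntl, the mouse symbol of Bmal1, had 20.7 ± 1.96 CPM in KO and 23.1 ± 3.85 CPM in WT libraries (SD, n = 19 each) and was not called at any time. Counts over the whole gene cannot show the loss of a part of it. CPM means counts per M, with library sizes scaled by TMM, throughout. Summed OPC markers were high in every library, at 12185 to 18805 CPM over 10 genes, and 12 microglia and macrophage markers were also present in every library, at 3836 to 17446 CPM. In such bulk samples, fewer cells of a type and less RNA per cell cannot be told apart.

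Sequence matches placed the stem-loop in 47 of the 78 genes. The 16 bases of the loop were found in 46 replication-dependent genes and in the variant gene H2afx, and they began 21 to 58 bases after the stop codon, with a median of 31. Searched over their whole length, 70 of 58797 protein-coding transcripts of the GENCODE annotation held a match, which is 0.119%. In the same search 49 of the 110 transcripts of the members did. The most frequent loop was shared, letter for letter, by 26 members, and the next, with 7 members, was found in H4 genes alone. The sequences of the genes that the results turn on are shown 5′ to 3′ in DNA letters, with the stems in capitals and 5 flanking bases on each side:
Hist1h1c: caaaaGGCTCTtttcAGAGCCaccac
Hist3h2ba: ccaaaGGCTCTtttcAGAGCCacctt
Hist1h2bg: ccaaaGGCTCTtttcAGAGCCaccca
Hist1h3d: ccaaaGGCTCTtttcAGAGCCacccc
Hist1h3a: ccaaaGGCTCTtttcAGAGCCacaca
Hist1h4i: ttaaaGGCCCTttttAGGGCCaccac
H2afx: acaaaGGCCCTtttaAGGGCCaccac
These loops lie in the 3′ UTR of each gene on the GRCm38 build, at chr13:23739512-23739527 (+) for Hist1h1c, chr11:58949349-58949364 (+) for Hist3h2ba, chr13:23571843-23571858 (+) for Hist1h2bg and chr13:23576244-23576259 (+) for Hist1h3d. The Hist1h3a loop is at chr13:23761890-23761905 (-), the Hist1h4i loop at chr13:22040966-22040981 (-) and the H2afx loop at chr9:44335240-44335255 (+). Hist1h1c and the H2B and H3 genes shown carry the GGCTCT stem, and Hist1h4i and H2afx carry GGCCCT. The flanking bases differ between genes whose loops are identical. Of the 21 replication-dependent genes without a match, 17 have a longest annotated model that ends within 50 bases of the stop codon, so the window of the annotation may not reach a loop there.

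What the annotation places after the loop differed between members. In 23 replication-dependent genes the longest model runs 100 bases or more past the loop, for instance 840 bases in Hist1h1c, 169 in Hist3h2ba and 752 in Hist1h3d. These 23 genes held 77.0% of the summed mean CPM of the class. A further 23 genes have models that end within 100 bases of the loop, such as Hist1h3a with 37 bases and Hist1h2ad with 42, and they held 4.55% of the CPM. The genes without a loop match held 18.4%. Most of this was in Hist1h2bc (9.70%) and Hist2h2be (6.08%), whose models run 742 and 2192 bases past the stop codon without a match. Typical genes of the first pair of sets were nonetheless alike in level per length, with medians of 0.612 and 0.548 CPM per kilobase. The difference in share came from the upper end, since 12 genes of the long set and 1 gene of the short set exceeded 1 CPM. A longer model also gathers reads from more bases, so these shares describe the annotation and the counts together.

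Promoter windows from RefSeq (GRCm38.p6, 250 bases before to 50 after the start) were matched for 72 of the 78 genes. The E-box CACGTG, the letters that CLOCK and BMAL1 bind, occurred in none of the 62 replication-dependent windows and in 1 of 10 variant windows, that of H2afz, against 7.15% of all 32851 windows in the table. All motifs were searched on both strands. The octamer ATTTGCAT occurred in 13 of 62 replication-dependent windows, 6 of them among the 16 H2B genes, and in 1 variant window, that of H3f3b, against 1.74% of all windows. The box CCAAT was in 53 of 62 replication-dependent and 9 of 10 variant windows, against 37.4% of all, and TATAAA in 35 of 62 and 1 of 10, against 13.6%. The cyclic AMP response element TGACGTCA was in 4 of 62 and none of 10, against 1.79%. A match describes letters in a window and not a binding site. The E-box of H2afz lies 208 bases before the start. The H3f3b stretch holds 4 CCAAT boxes, the octamer on the opposite strand (ATGCAAAT) and TATAAA. The E-box, the octamer and TATAAA were each in 1 of 10 variant windows, while CCAAT was in most of them. Both stretches are shown with the motifs in capitals:
H2afz: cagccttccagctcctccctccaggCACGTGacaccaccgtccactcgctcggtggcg
H3f3b: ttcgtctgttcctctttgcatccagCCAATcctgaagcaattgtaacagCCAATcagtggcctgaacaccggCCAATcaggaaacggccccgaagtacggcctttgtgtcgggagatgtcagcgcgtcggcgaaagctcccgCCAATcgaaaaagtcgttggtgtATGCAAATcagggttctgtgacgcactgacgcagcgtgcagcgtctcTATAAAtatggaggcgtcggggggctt
The H2afz stretch spans chr3:137864254-137864311 (+) and the H3f3b stretch chr11:116024505-116024743 (-). The RefSeq start of H3f3b falls inside the span that the deposited table gives for the gene.

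Variant histone mRNAs were far more abundant than replication-dependent ones. Summed over members, variants took 0.185 ± 0.0201% of protein-coding counts and replication-dependent genes 0.0179 ± 0.00408% (SD, n = 38), which is 1259.5 to 2286.3 CPM and 113.4 to 316.5 CPM per library. The lowest variant sum lay far above the highest replication-dependent sum. Of the 11 variant genes 9 passed the filter on low counts, and of the 67 replication-dependent genes 50 passed. The 19 members that failed the filter include 9 with no count in any library, namely Hist2h2aa1, Hist2h2aa2, Hist2h3c1, Hist2h3b, Hist2h2bb, Hist1h2ba, Hist1h2aa, H2afb1 and H2afb2. Several of these share sequence with other members, so a count of 0 need not mean absent RNA there. Among the 50 replication-dependent genes that passed, 33 still stood at 0 in some library, and 16 exceeded 1 CPM on average.

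Levels per length, in CPM per kilobase of the deposited gene length, placed most variants at the top. H3f3b (chr11:116021912-116027962), which with H3f3a encodes the replacement form of H3, averaged 329 and ran from 218 to 497. H2afz (chr3:137864487-137866922), one of the genes of H2A.Z, averaged 112. H2afx (chr9:44334694-44336077), whose product H2A.X is phosphorylated beside DNA breaks, averaged 65.2, and H3f3a (chr1:180800832-180813943) averaged 55.0. H2afx is the only variant with the stem-loop, and in human cells its mRNA is known in a stem-loop and a polyadenylated form.

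Lower in the order stood H2afv (47.7 CPM per kilobase), the other H2A.Z gene, H2afy2 (38.6) and H2afy (23.1), which encode macroH2A, H2afj (11.7), which encodes H2A.J, and H2afb3 (0.77), a gene known from testis. The lowest H3f3b library, at 218 CPM per kilobase, lay above every H2afz library, while the lowest H2afz library, at 82.6, lay below the highest H2afx library, at 90.2. The coefficient of variation over libraries was 20.2% for H2afx, 19.3% for H3f3a and 13.8% for H2afv, so the order of these 3 is not separated by more than their spread. H2afb3 had no count in 7 libraries.

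The replication-dependent class was carried by few genes. Hist1h1c (chr13:23738808-23740367), the gene of a linker histone H1, reached 44.1 CPM per kilobase, within the range of the variants, and took 39.4% of the CPM of its class. Hist3h2ba (chr11:58948920-58949533), an H2B gene outside the large cluster on chromosome 13, reached 38.8 CPM per kilobase and took 13.7%. The H2B genes Hist1h2bc, Hist2h2be and Hist1h2bg took 9.70%, 6.08% and 5.23%, and with the first pair made up 74.1%. By type, the 6 linker H1 genes held 44.2% and the 18 H2B genes 38.3% of the CPM, while 18 H2A genes held 7.19%, 12 H3 genes 5.70% and 13 H4 genes 4.61%. Core histones enter the nucleosome in equal number, which these poly-A shares do not mirror. The sums include genes with near-identical copies, whose counts are uncertain.

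Below these, the replication-dependent levels dropped steeply. Hist1h2bg and Hist1h2bc stood at 14.8 and 14.6 CPM per kilobase, Hist1h4i (H4) at 4.90, Hist2h2be at 4.05, Hist1h3d (H3) at 3.85 and Hist3h2a (H2A) at 2.64. Hist1h3i (H3) at 2.45, Hist1h2ad (H2A) at 2.37, the linker gene Hist1h1e at 2.10 and Hist1h2ao (H2A) at 1.98 followed. From Hist1h4i downward, neighbours in this order differed by less than their spread between libraries, as did Hist1h2bg and Hist1h2bc. The coefficient of variation over all 38 libraries was 63.8% for Hist1h2bg and 58.8% for Hist1h3d, against 33.5% for Hist1h1c and 9.78% for H2afy. Many of these genes have near-identical copies, and the counting rule for reads that fit several places is not given in the sources used here. The share of 100-base windows with a copy in the annotated transcripts of another member was 92.7% for Hist1h2ao, 68.6% for Hist1h3i, 63.6% for Hist1h2ad, 44.9% for Hist1h2bg and 32.2% for Hist1h3a, so their counts are uncertain. It was 5.07% for Hist1h1c, 1.40% for H2afx, 15.7% for H2afb1 and H2afb3, and 0 for Hist3h2ba and the other 8 variants. Among members without a count, it was 100% for Hist2h2aa2, 88.1% for Hist2h2aa1, 77.1% for Hist2h3b, 32.9% for Hist2h3c1 and 27.4% for Hist1h2ba. Hist2h2bb and Hist1h2aa, also without a count, had 0. Copies outside the members were not searched.

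**Figure D1:**
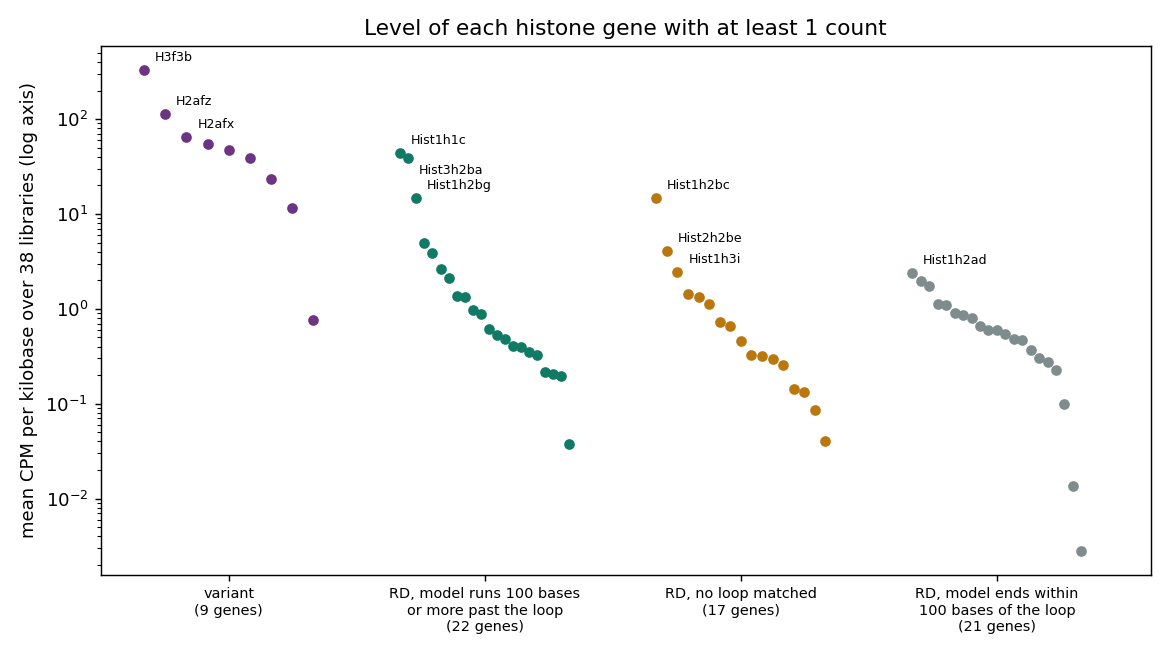
Mean CPM per kilobase over 38 libraries (log axis) for each histone gene with at least 1 count, grouped as variants, replication-dependent (RD) genes whose model runs 100 bases or more past the stem-loop, RD genes without a matched loop and RD genes whose model ends within 100 bases of the loop. Hist1h1c at 44.1 and Hist3h2ba at 38.8 reach the levels of the variants, and no gene of the last set exceeds 2.37.

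Across the 8 groups, the summed variant share was higher in KO than in WT at ZT0 and ZT18, and the summed replication-dependent share was scattered. At ZT0 variants took 0.181 ± 0.0159% of protein-coding counts in KO and 0.156 ± 0.00797% in WT libraries (SD, n = 4 each), and the ranges of 0.169 to 0.204% in KO and 0.144 to 0.163% in WT did not overlap. At ZT18 they took 0.189 ± 0.00599% in KO and 0.164 ± 0.00612% in WT (SD, n = 4 each), and the ranges of 0.184 to 0.197% and 0.157 to 0.170% did not overlap either. At ZT6 the shares were 0.202 ± 0.0189% in KO (n = 7) and 0.196 ± 0.0177% in WT (n = 5), and at ZT12 0.180 ± 0.00907% in KO (n = 4) and 0.195 ± 0.0179% in WT (n = 6), with overlapping libraries at both times. H3f3b, whose KO and WT libraries overlapped at ZT0 and at ZT18, held 54.4% of the variant CPM. All KO ZT18 libraries are in the low-rRNA set. Single genes without overlap made up 5.24% of all genes at ZT0 and 18.5% at ZT18. No test was run on the summed shares, because the members were chosen with results of these data known.

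Replication-dependent genes took 0.0147 ± 0.00149% in KO and 0.0186 ± 0.00675% in WT at ZT0, and 0.0186 ± 0.00299% in KO and 0.0169 ± 0.00198% in WT at ZT6. At ZT12 the shares were 0.0185 ± 0.00356% in KO and 0.0195 ± 0.00693% in WT, and at ZT18 they were 0.0167 ± 0.00125% in KO and 0.0188 ± 0.00383% in WT (SD, group sizes as above). KO and WT libraries overlapped at all 4 times. The wide WT spreads at ZT0 and ZT12 rest on WT ZT0 replicates 2 and 3 and on WT ZT12 replicate 1.

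Set against the variants of the same library, replication-dependent counts numbered 8.12 ± 0.464 per 100 variant counts in KO ZT0 libraries and 11.9 ± 4.18 in WT ZT0 libraries, the 4 WT values being 9.0004, 14.6, 16.4 and 7.80. WT ZT12 replicate 1 stood at 15.97 and WT ZT18 replicate 1 at 14.1, while no KO library exceeded 11.6. The 4 highest libraries, all WT, were thus WT ZT0 replicates 2 and 3, WT ZT12 replicate 1 and WT ZT18 replicate 1. In these 4, the summed level of the 30 listed S phase and DNA replication genes was 1551, 1733, 1541 and 1689 CPM, inside the range of 1439 to 2025 CPM over all libraries. Their summed microglia and macrophage markers were 10865, 13289, 10547 and 11819 CPM, against 3836 to 17446 CPM over all libraries. The part of either list in the ratio was not tested.

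**Figure D2:**
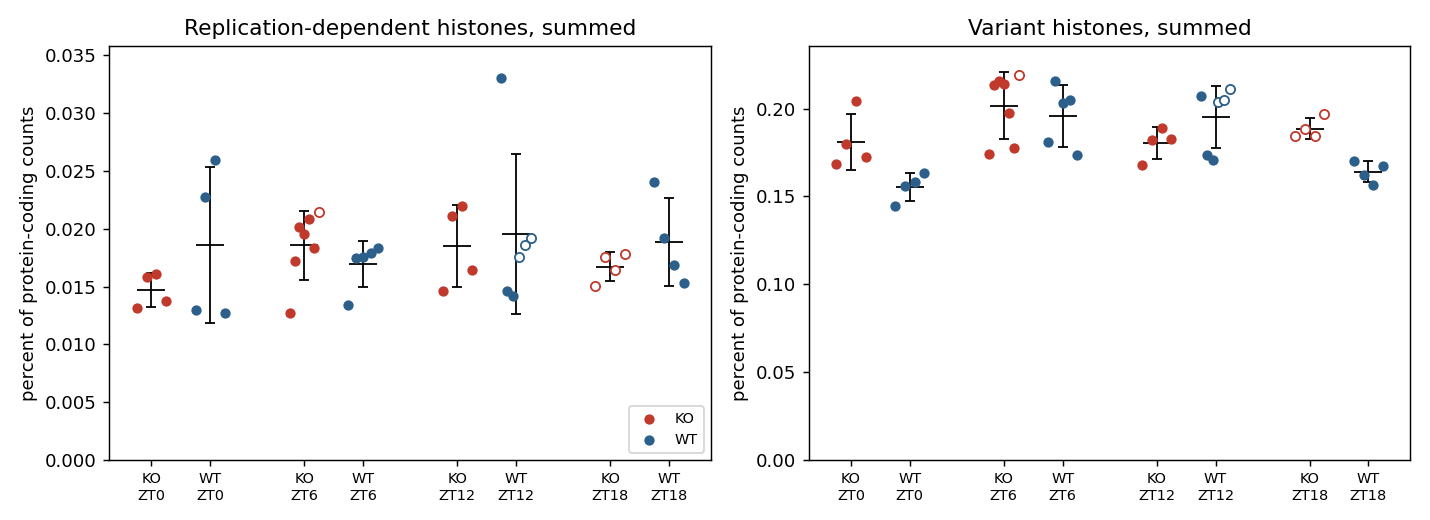
Percent of protein-coding counts in the summed replication-dependent (left) and variant (right) histone genes for every library, KO beside WT at each zeitgeber time; open points are the 8 low-rRNA libraries, and bars give mean ± SD. Variant shares of KO and WT libraries do not overlap at ZT0 and ZT18, while replication-dependent shares overlap at every time, with WT ZT12 replicate 1 highest at 0.0331%.

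At ZT18, KO libraries had more RNA of 3 variant genes than WT libraries, and no replication-dependent gene was called. By the quasi-likelihood test of edgeR, adjusted by Benjamini-Hochberg over 22798 genes, 3 of 59 tested members passed, all higher in KO, against 2.14% of all genes called in either direction and 1.39% called higher. The called genes were H2afj, H3f3a and H2afy.

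H2afj RNA stood at 27.6, 32.5, 31.9 and 28.9 CPM in the 4 KO ZT18 libraries, against 22.3, 18.6, 19.4 and 19.8 CPM in the 4 WT ZT18 libraries. Every KO library lay above every WT library. The log2 fold change was 0.59 ± 0.17 (SE) with an adjusted p of 0.0493. H2A.J, its product, is known to accumulate in senescent human cells.

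H3f3a RNA stood at 247, 249, 258 and 250.4 CPM in KO ZT18 libraries, against 169, 170.5, 165 and 203 CPM in WT ZT18 libraries. The KO libraries were close together, and WT replicate 4 was the nearest to them. The log2 fold change was 0.50 ± 0.14 with an adjusted p of 0.0493. H3f3b, which encodes the same protein from another locus and at a higher level, had 854, 923, 887 and 1016 CPM in KO against 910.3, 830.0, 733 and 705 CPM in WT libraries. Its libraries overlapped, and its log2 fold change of 0.21 ± 0.14 did not pass.

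H2afy RNA stood at 185, 179.8, 168 and 177 CPM in KO ZT18 libraries, against 139.8, 145, 138 and 146 CPM in WT ZT18 libraries, again without overlap. The log2 fold change was 0.32 ± 0.09 with an adjusted p of 0.0462. The other macroH2A gene, H2afy2, had a log2 fold change of 0.19 ± 0.14 and was not called.

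These 3 calls sat close to the threshold and moved with the scaling. Of 38 fits that each leave out 1 library, H3f3a lost its call in 29, H2afj in 23 and H2afy in 20, with adjusted p between 0.0267 and 0.148 for H3f3a, 0.0282 and 0.136 for H2afj and 0.0317 and 0.136 for H2afy. All 4 KO ZT18 libraries and no WT ZT18 library are in the low-rRNA set. With that set as a term in the model, the log2 fold changes were 0.20 for H2afj, 0.17 for H3f3a and 0.08 for H2afy. None was called (adjusted p 0.945, 0.947 and 0.970). Only the KO ZT6 and WT ZT12 groups hold both kinds of library, so the term was estimated from these and carried over to ZT18. It cannot separate the set from genotype at ZT18. With edgeR's relative log expression (RLE) scaling or with library size alone in place of TMM, no member was called. Without the 13 single-sex libraries, a setting chosen after the data were seen, the values were 0.57, 0.59 and 0.33 and none was called (adjusted p 0.366, 0.263 and 0.307).

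Over the whole class, 8 of 9 tested variants had a positive log2 fold change at ZT18, with a median of 0.30, while 21 of 50 replication-dependent genes were positive, with a median of -0.22. All genes had a median of -0.00. The variant median was 0.07 with the low-rRNA term. The replication-dependent median was 0.05 without WT ZT18 replicate 1, so its sign rested on that library, and it was -0.12 without WT ZT18 replicate 3, -0.37 without KO ZT18 replicate 4 and -0.05 with the low-rRNA term. Libraries of KO and WT did not overlap for 7 members, Hist1h3a, Hist3h2a, H2afj, H2afx, H2afy, H2afz and H3f3a, against 18.5% of all genes, and 7 of 59 is a smaller share than that.

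Markers of several other cell types, though not of astrocytes, leaned toward KO as well. At ZT18 the 6 red blood cell markers were all positive in KO over WT, with summed levels of 4642 to 7804 CPM in KO and 3087 to 3512 CPM in WT. The 12 microglia and macrophage markers were also all positive, with sums of 10137 to 14332 CPM in KO and 4491 to 12325 CPM in WT, as were the 8 endothelial markers, with sums of 68.1 to 99.7 CPM in KO and 40.1 to 73.0 CPM in WT. Of the 10 OPC markers 4 were positive, with sums of 12185 to 15722 CPM in KO and 13989 to 16550 CPM in WT. No marker was itself called at ZT18, and of these markers Ly6c1 alone, an endothelial one, stood at 0 in any library. The 10 neuron markers were positive in 8 cases, with a median log2 fold change of 0.41 and sums of 1500 to 1682 CPM in KO and 1261 to 1966 CPM in WT. The medians were 0.86 for red blood cell, 0.73 for endothelial and 0.42 for microglia and macrophage markers. Of the 8 astrocyte markers 4 were positive, with a median of 0.03. The part of such cells in the variant calls was not tested.

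**Figure D3:**
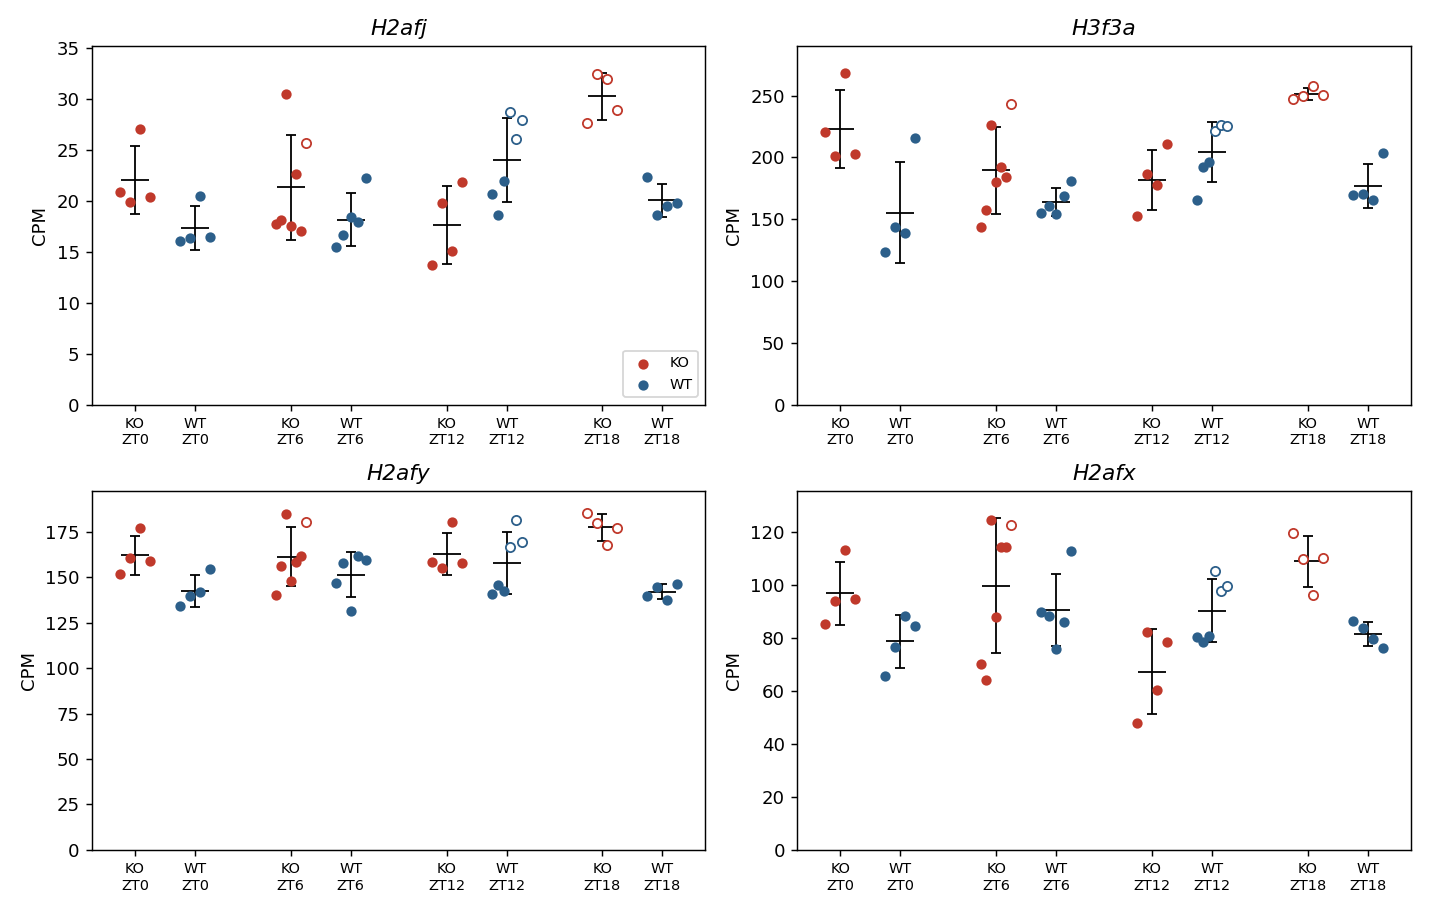
CPM of H2afj, H3f3a, H2afy and H2afx in every library, KO beside WT at each zeitgeber time, with open points for the 8 low-rRNA libraries and bars for mean ± SD. At ZT18 the KO libraries lie above all WT libraries for all 4 genes, and at ZT12 the WT libraries with open points are the high ones for all 4.

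At ZT0 no member was called, while the classes leaned in opposite directions. The share of all genes called was 0.285%. Of the variants 8 of 9 were positive in KO over WT, with a median log2 fold change of 0.34. Of the replication-dependent genes 12 of 50 were positive, with a median of -0.76, against -0.05 over all genes. At an unadjusted p under 0.05 stood 11 replication-dependent genes and 6 variants, against 18.4% of all genes. DESeq2 called 4 members, against 4.09% of all genes in its fit. Over the 16 replication-dependent genes above 1 CPM, a cut made after the data were seen, 3 were positive and the median was -0.90.

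The largest of these replication-dependent differences were in low-level genes with copies. Hist1h2ad RNA stood at 0.0417, 0.868, 0.502 and 0.112 CPM in KO ZT0 libraries, against 1.33, 3.16, 3.27 and 0.891 CPM in WT ZT0 libraries. The groups did not overlap, but KO replicates 1 and 4 held only a few reads of it. The log2 fold change was -2.52 ± 0.65 with an adjusted p of 0.0569, the smallest of the class. Members whose KO and WT libraries did not overlap numbered 3, Hist1h2ad, Hist1h3i and H2afb3, against 5.24% of all genes.

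More abundant genes showed where the WT spread came from. Hist1h2bg RNA stood at 3.67, 9.23, 3.65 and 3.79 CPM in KO ZT0 libraries, against 10.2, 20.8, 24.2 and 3.85 CPM in WT ZT0 libraries. Hist1h1c RNA stood at 27.8, 54.6, 46.1 and 49.1 CPM in KO ZT0 libraries, against 34.2, 75.8, 85.0 and 36.6 CPM in WT ZT0 libraries. In both genes WT replicates 2 and 3 were the high libraries and WT replicate 4 lay among the KO libraries, as did WT replicate 1 for Hist1h1c. The log2 fold changes of -1.54 for Hist1h2bg (adjusted p 0.0930) and -0.38 for Hist1h1c did not pass. Without WT ZT0 replicate 3 the replication-dependent median was -0.33, and without WT ZT0 replicate 4 the number of members called was 9 of 61, with Hist1h2ad, Hist1h2bg, Hist1h3a, Hist1h3d and Hist1h4k lower in KO and H2afv, H2afy2, H3f3a and Hist3h2ba higher. In that fit 9.37% of all genes were called, against 0.285% with every library.

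Hist3h2ba went the other way from most of its class. Its RNA stood at 35.3, 24.9, 38.4 and 19.8 CPM in KO ZT0 libraries, against 14.99, 17.5, 18.2 and 25.2 CPM in WT ZT0 libraries. Replicate 4 of each genotype lay within the other's range, and so did KO replicate 2, just below WT replicate 4. The log2 fold change was 0.64 with an adjusted p of 0.0813. H3f3a RNA stood at 221, 201, 269 and 202 CPM in KO ZT0 libraries, against 123, 144, 139 and 215 CPM in WT ZT0 libraries, and again WT replicate 4 alone lay among the KO libraries. Its log2 fold change was 0.52 ± 0.14 with an adjusted p of 0.0613.

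WT ZT0 replicates 2 and 3, the libraries with most replication-dependent RNA, also had the most microglia and macrophage marker RNA of their group. The sums of those markers were 3836 to 7701 CPM in KO ZT0 and 5415 to 13289 CPM in WT ZT0 libraries, and all 12 markers were negative in KO over WT with a median log2 fold change of -0.36, none called. Of the OPC markers 9 of 10 were positive, with a median of 0.17, none called. Summed small nuclear and small nucleolar RNAs, another class without poly-A tails, were 97.5 to 159 CPM in KO ZT0 and 142 to 288 CPM in WT ZT0 libraries. The part of these in the replication-dependent values was not tested.

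At ZT6 and ZT12 no member was called. At ZT6, where 0.0132% of all genes were called, the median log2 fold change was 0.13 in both classes, with 34 of 50 replication-dependent genes and 9 of 9 variants positive. The replication-dependent median at ZT6 was 0.25 without KO ZT6 replicate 1, 0.01 without KO ZT6 replicate 5, 0.03 without WT ZT6 replicate 1 and 0.22 without WT ZT6 replicate 2, and the variant median was 0.08 without KO ZT6 replicate 3 or 7 or WT ZT6 replicate 3. At an unadjusted p under 0.05 stood 1 replication-dependent gene and no variant, against 4.39% of all genes. No member had groups without overlap at ZT6, against 0.276% of all genes, or at ZT12, against 5.27%. At ZT12, where 5.00% of all genes were called, the median was -0.17 in both classes, with 20 of 50 replication-dependent genes and 3 of 9 variants positive, and -0.01 over all genes. There 5 replication-dependent genes and 2 variants had an unadjusted p under 0.05, against 20.1% of all genes. By limma-voom 1 member was called, Hist1h2bh, against 6.48% of all genes.

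The ZT12 medians moved with the libraries used. The variant median was -0.02 without the low-rRNA libraries and 0.01 with the low-rRNA term, while leaving out KO ZT12 replicates 1, 2 and 3 in turn gave -0.09, -0.06 and -0.11 and leaving out WT ZT12 replicate 2 gave -0.07. The replication-dependent median was 0.05 without WT ZT12 replicate 1 and -0.02, -0.31, -0.10 and -0.06 without KO ZT12 replicates 1 to 4. H2afj RNA at ZT12 stood at 13.7, 19.8, 15.1 and 21.9 CPM in KO libraries, against 20.7, 18.6 and 21.98 CPM in WT replicates 1 to 3 and 28.7, 26.03 and 27.9 CPM in the low-rRNA WT replicates 4 to 6. The KO libraries overlapped only the first set of WT replicates. The log2 fold change was -0.45 with an adjusted p of 0.0826. At the same time 2 of the 10 OPC markers were called lower in KO, with a list median of -0.35. They were Cspg4 (log2 fold change -0.49, adjusted p 0.0418) and Neu4 (-0.74, adjusted p 0.0316), and their part in the histone values was not tested. The low-rRNA and the single-sex libraries at ZT12 were all WT, and the part of these in the marker differences was not tested either.

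Over all 4 times together no member was called, where 0.0921% of all genes were. The median log2 fold change was -0.21 for replication-dependent genes, of which 18 of 50 were positive, and 0.17 for variants, of which 8 of 9 were positive, against -0.02 over all genes. At an unadjusted p under 0.05 stood 9 replication-dependent genes and 6 variants, against 15.1% of all genes. DESeq2, which called 1.02% of all genes, called H2afy and H3f3a, which edgeR's quasi-likelihood test placed at log2 fold changes of 0.16 and 0.27 (adjusted p 0.0958 and 0.0931). Without WT ZT0 replicate 4, 5 of 61 members were called, all of them variants, against 2.69% of all genes. The replication-dependent median was -0.10 without WT ZT0 replicate 3, -0.41 without KO ZT12 replicate 2 and -0.35 without the single-sex libraries.

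**Figure D4:**
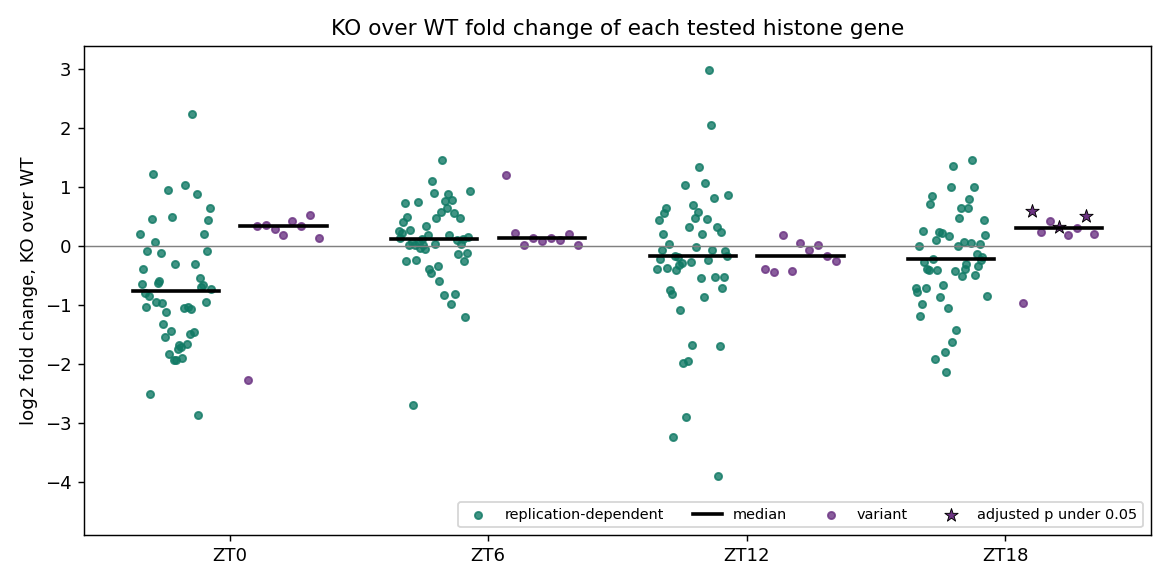
Log2 fold change of KO over WT for each of the 50 replication-dependent and 9 variant genes tested, at each zeitgeber time, with black lines at the class medians and stars for genes with an adjusted p under 0.05. The medians of the 2 classes are -0.76 and 0.34 at ZT0 and -0.22 and 0.30 at ZT18, they are 0.13 in both classes at ZT6 and -0.17 in both at ZT12, and the only stars are 3 variants at ZT18.

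By the interaction test, the genotype difference depended on the hour for 4 of 59 tested members, against 9.19% of all genes, a larger share. The called members were H2afj, H3f3a and H2afx among the variants and Hist1h3a among the replication-dependent genes, with adjusted p of 0.0103, 0.0330, 0.0390 and 0.0319. The 3 variants were higher in KO at ZT0 and ZT18 and lower in KO at ZT12, though of these single-time differences H2afj and H3f3a at ZT18 alone passed, and H3f3a at ZT12 turned positive, at 0.01, with the low-rRNA term. Hist1h3a, an H3 gene, showed the opposite order.

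H2afx RNA stood at 48.0, 82.2, 60.5 and 78.5 CPM in KO ZT12 libraries, against 80.4, 78.5 and 80.8 CPM in WT ZT12 replicates 1 to 3 and 105, 97.7 and 99.9 CPM in the low-rRNA WT replicates. At ZT18 it stood at 119.7, 109.8, 96.4 and 110.5 CPM in KO libraries, against 86.5, 83.8, 79.8 and 76.4 CPM in WT libraries. The groups overlapped at ZT12 and not at ZT18. The log2 fold changes were -0.43 at ZT12 and 0.42 ± 0.17 at ZT18 (adjusted p 0.100 and 0.164), with 0.30 at ZT0 and 0.14 at ZT6.

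Hist1h3a RNA stood at 0.292, 0.457, 0.456 and 0.149 CPM in KO ZT0 libraries, against 1.17, 1.49, 2.34 and 0.202 CPM in WT ZT0 libraries. At ZT12 it stood at 1.84, 1.83, 1.25 and 0.659 CPM in KO libraries, against a lowest, median and highest of 0.277, 0.781 and 1.98 CPM in WT libraries. At ZT18 it stood at 0.338, 0.424, 0.470 and 0.232 CPM in KO libraries, against 1.90, 0.773, 1.33 and 0.587 CPM in WT libraries. KO was low at ZT0 and ZT18 and high at ZT12, and the groups were apart at ZT18 alone. The log2 fold changes were -1.94 at ZT0, 0.04 at ZT6, 0.70 at ZT12 and -1.63 at ZT18, none of them called. These are low counts of a gene with copies.

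None of the 4 interaction calls held without the 8 low-rRNA libraries, where KO ZT18 drops out and the test covers 3 times. The adjusted p were then 0.469 for H2afj, 0.356 for H3f3a, 0.508 for H2afx and 0.325 for Hist1h3a. In that fit 0 of 22965 genes were called. With the low-rRNA set as a term, and without the single-sex libraries, no member was called, against 0.189% and 3.05% of all genes. Without KO ZT12 replicate 1 the count was also 0, against 4.45% of all genes, and without WT ZT12 replicate 1 it was 6, against 10.2% of all genes. Of 38 fits that each leave out 1 library, the interaction call was lost in 15 for H2afx, 15 for H3f3a, 10 for Hist1h3a and 1 for H2afj.

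H3f3b RNA differed between the times of day in both genotypes. H3f3b RNA averaged 812 ± 92.5, 1196 ± 188, 891 ± 48.3 and 920.0 ± 70.0 CPM in KO libraries over the 4 times in order (SD, n = 4, 7, 4 and 4), and 735 ± 81.6, 1176 ± 179, 1063 ± 195 and 795 ± 93.8 CPM in WT libraries (SD, n = 4, 5, 6 and 4). The KO ZT6 libraries had a lowest, median and highest of 955, 1243 and 1478 CPM, and the 5 WT ZT6 libraries 1016, 1368, 1306, 1227 and 961 CPM. The KO ZT0 libraries stood at 692, 838, 914 and 803 CPM and the WT ZT0 libraries at 648, 789, 819 and 687 CPM. All ZT6 libraries lay above all ZT0 libraries of both genotypes.

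The test of any difference between the 4 times gave H3f3b an adjusted p of 0.00358 in KO and 0.000819 in WT, and these calls remained under every alternative and without any library in turn. No test of KO against WT passed for H3f3b (adjusted p 0.255 to 0.992), and its interaction had an adjusted p of 0.259. H3f3b was the only member called for time in WT, where 4.91% of all genes were called. At ZT12 the WT libraries ran from 792 to 1273 CPM, with a median of 1125 CPM, and the KO libraries from 834 to 933 CPM. The companion gene H3f3a was not called for time in WT (adjusted p 0.157), so the gene pair of this H3 differed in calls, although the difference between the 2 genes was not tested.

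In KO, 5 of 59 tested members were called for time, a smaller share than the 21.9% of all genes. They were H3f3b, H2afj (adjusted p 0.00540), Hist1h3a (0.0107), H2afx (0.0119) and H3f3a (0.0265). H2afj RNA in KO averaged 22.03 ± 3.38, 21.3 ± 5.17, 17.6 ± 3.85 and 30.2 ± 2.33 CPM over the 4 times, highest at ZT18, where every library is in the low-rRNA set. H2afx in KO averaged 96.9 ± 11.8, 99.9 ± 25.4, 67.3 ± 15.997 and 109 ± 9.56 CPM, lowest at ZT12. Without the low-rRNA libraries, and so without ZT18, H3f3b alone was called. Hist1h1c, the most abundant replication-dependent gene, averaged 44.4, 80.5, 69.8 and 66.0 CPM in KO and 57.9, 69.2, 80.9 and 66.2 CPM in WT over the times, and no test of it passed (adjusted p 0.0989 for time in KO).

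Markers of other cells also differed between times. For time in KO, where 21.9% of all genes were called, 10 of 10 neuron, 6 of 6 red blood cell, 7 of 8 astrocyte, 8 of 12 microglia and macrophage, 5 of 8 endothelial and 4 of 10 OPC markers were called. For time in WT, where 4.91% of all genes were called, 6 of 8 astrocyte, 4 of 6 red blood cell and 3 of 10 neuron markers were called, and no microglia, endothelial or OPC marker. Summed astrocyte markers were 719 to 1296 CPM in KO ZT6 and 862 to 1457 CPM in WT ZT6 libraries, against 1046 to 1585 CPM in KO ZT0 and 1087 to 1827 CPM in WT ZT0 libraries. The part of such cells in the values of H3f3b and of the other members called for time was not tested.

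**Figure D5:**
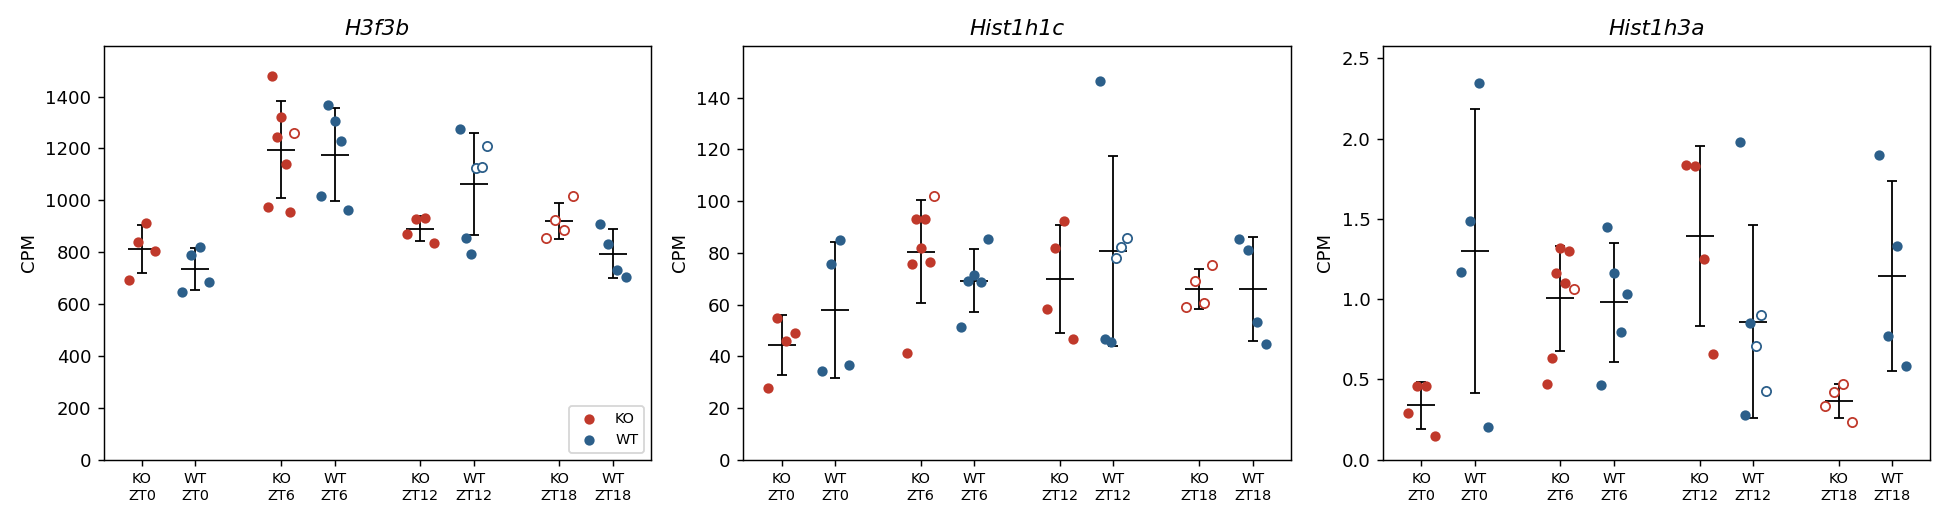
CPM of H3f3b, Hist1h1c and Hist1h3a in every library, KO beside WT at each zeitgeber time, with open points for the 8 low-rRNA libraries and bars for mean ± SD. H3f3b is higher at ZT6 than at ZT0 in every library of both genotypes, Hist1h1c shows a wide WT spread at ZT0 and ZT12, and Hist1h3a is low in KO at ZT0 and ZT18.

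Of 3 histone genes outside the naming rule, 1 was called for genotype, at ZT12, where 5.00% of all genes were called. H1f0, the linker histone of non-dividing cells, averaged 189 CPM and was called in no test. H1fx, another polyadenylated linker histone, was lower in KO at ZT12, with 20.8 ± 7.10 CPM in KO and 35.4 ± 7.35 CPM in WT libraries (SD, n = 4 and 6), a log2 fold change of -0.77 ± 0.22 and an adjusted p of 0.0377. Its interaction was also called (adjusted p 0.00891). WT ZT12 replicates 4 to 6 are low-rRNA libraries and no KO ZT12 library is. Single-sex libraries at ZT12 were 4 of 6 in WT and 0 of 4 in KO. The part of either in the H1fx difference was not tested. Cenpa, the centromeric H3, was called for time in WT alone (adjusted p 0.00113).

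Of the listed genes that make and remove histone mRNA, 1 was called for genotype. Slbp, the stem-loop binding protein, averaged 42.1 to 49.3 CPM over the KO groups and 42.3 to 50.9 CPM over the WT groups and was called in no test. Of 19 tested genes of histone mRNA processing, transcription and decay, Npat, the activator of histone gene clusters, was the only one called for genotype, at ZT12. That is 5.26% of the list, against 5.00% of all genes. Npat had 50.4 ± 7.70 CPM in KO and 39.2 ± 2.69 CPM in WT libraries (SD, n = 4 and 6) and a log2 fold change of 0.36 (adjusted p 0.0215). Here too the low-rRNA and the single-sex libraries at ZT12 are all WT, and their part in the Npat difference was not tested. In the interaction test 2 of the 19 were called, Npat and the decay helicase Upf1, a share of 10.5% against 9.19% of all genes. For time in KO 5 were called, Upf1, Lsm11, Npat, Tut7 and Lsm1, a share of 26.3% against 21.9% of all genes. None was called for time in WT.

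Of 26 histone chaperones and remodellers, Tonsl, a reader of newly made histones behind the fork, was lower in KO at ZT0, with 18.1 ± 2.43 CPM in KO and 28.7 ± 8.83 CPM in WT libraries (SD, n = 4 each; log2 fold change -0.66, adjusted p 0.0464). Ubn2, a subunit of the HIRA complex that deposits the replacement H3, was lower in KO at ZT18, with 112 ± 5.20 CPM in KO and 167 ± 11.04 CPM in WT libraries (SD, n = 4 each; log2 fold change -0.57, adjusted p 0.0426). Each was the only genotype call of the list at its time, 3.85% against 0.285% of all genes at ZT0 and 2.14% at ZT18. For time, 6 of the 26 were called in KO, a share of 23.1% against 21.9% of all genes, and 1 in WT, Ubn1, a share of 3.85% against 4.91%. Ubn1 was also among the KO calls. All KO ZT18 libraries belong to the low-rRNA set here too.

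S phase genes gave no genotype call at any time. The shares of all genes called were 0.285, 0.0132, 5.00 and 2.14% at ZT0, ZT6, ZT12 and ZT18. Over the 30 listed genes of S phase and DNA replication, the median log2 fold changes were 0.01, 0.08, -0.00 and 0.10 at ZT0, ZT6, ZT12 and ZT18, beside -0.76, 0.13, -0.17 and -0.22 for the replication-dependent histones. Pcna, the sliding clamp of DNA polymerases, was called for time in both genotypes, with 196 ± 31.0, 266 ± 39.1, 184 ± 8.43 and 214 ± 21.5 CPM in KO and 176 ± 12.3, 262 ± 11.6, 223 ± 33.2 and 180 ± 26.99 CPM in WT libraries over the 4 times (adjusted p 0.00161 in KO and 0.00148 in WT). It was highest at ZT6 in both, as was H3f3b. In the interaction test 3 of the 30 S phase genes were called, Ccne2, Fen1 and E2f1, against 9.19% of all genes.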

How the data were processed

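The authors deposited whole-number read counts, without normalization, for every gene in the 38 libraries, together with gene names, biotypes, coordinates and lengths. Per the submitters' processing notes, fastp, HISAT2 2.0.5 and featureCounts 1.5.0-p3 were used on GRCm38 (mm10). The sources used here do not give the annotation release, the strand setting or the treatment of reads that fit several places.

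Groups came from the sample titles, and the labels describe the replicates as biological. Genes passing filterByExpr by group in edgeR 4.0.16 (R 4.3.3) were kept, which left 22798 genes with 99.95% of counts. Libraries were scaled by TMM, all 8 groups entered 1 quasi-likelihood fit (glmQLFit, then glmQLFTest), with Benjamini-Hochberg adjustment over all genes tested and calls at 0.05. Every adjusted p comes from this test unless another tool is named. Log2 fold changes set KO over WT and are given ± SE. Over all times, the 4 within-time differences were averaged with equal weight; the interaction and the tests of time had 3 degrees of freedom. The script was tested on simulated data.

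Stem-loops were searched after the stop codon of GENCODE vM21 transcripts, and over whole transcripts for the share of all protein-coding transcripts. Promoter windows came from RefSeq (GRCm38.p6). Libraries with under 0.3% of counts in ribosomal RNA genes formed the low-rRNA set. Alternatives were RLE scaling in edgeR, library size alone, no filter on low counts, DESeq2 1.42.0 and limma-voom (limma 3.58.1). Further ones were a replicate block, leaving out the low-rRNA libraries or adding them as a term, and leaving out each library. A set of replication-dependent genes above 1 CPM and a fit without the 13 single-sex libraries were added after seeing the data.

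The members and lists were chosen with earlier results of these data known. Named were all variants tested, the 12 replication-dependent genes highest per length, any member called, 3 histones outside the rule and, of each related list, Slbp or up to 4 genes, called ones first. Members named as missing counts, as non-overlapping or as called in a single alternative were chosen after their values were seen.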

Additional observations from a re-analysis of the deposited data

Results flagged for a closer look

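In 22 of 192 checks of a member or class within a group of 4 to 7 libraries, 1 library stood far from the others. Chance flags about 1 in 20 groups, and the groups and libraries are shared between genes, so the flags are not independent. WT ZT12 replicate 1 was the library concerned most often. The summed replication-dependent share was 0.0331% there, against 0.0142 to 0.0192% in the other WT ZT12 libraries, with Hist1h2bg at 24.0 CPM against 3.09 to 8.22, Hist1h3d at 14.4 against 0.940 to 4.26, Hist1h1e at 10.6 against 1.60 to 4.81 and Hist1h3a at 1.98 against 0.277 to 0.903. The same library was low in H2afv, at 64.5 CPM against 75.1 to 81.3, and in H2afy2, at 66.4 against 88.6 to 99.8.

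Among KO ZT0 libraries, replicate 3 was high in H2afj, at 27.1 CPM against 19.8 to 20.8, and in H2afb3, at 0.319 against 0.0417 to 0.0743. Replicate 2 was high in Hist1h2bg, at 9.23 CPM against 3.65 to 3.79. Among WT ZT0 libraries, replicate 1 was low in Hist3h2a, at 2.26 CPM against 5.12 to 5.51, replicate 3 high in H2afj, at 20.5 against 15.999 to 16.4, and replicate 4 high in H2afy2, at 101 against 66.9 to 68.9.

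Among KO ZT6 libraries, replicate 3 was high in H2afv, at 100.05 CPM against 69.3 to 80.0, and in Hist1h2ao, at 2.16 against 0.475 to 1.13, and replicate 2 was high in Hist1h2ad, at 3.10 against 0.801 to 1.79. Among WT ZT6 libraries, replicate 1 had a replication-dependent share of 0.0134% against 0.0175 to 0.0183%, and replicate 4 was high in Hist3h2ba, at 28.6 CPM against 17.3 to 19.7. Among KO ZT12 libraries, replicate 3 was high in H2afy, at 180.2 CPM against 155 to 158, and replicate 1 low in Hist1h2bc, at 9.67 against 17.4 to 18.9. WT ZT12 replicate 2 was high in H2afb3, at 0.790 CPM against 0.242 to 0.358, and WT ZT18 replicate 4 was high in H3f3a, at 203 against 165 to 170.5.

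The genotype difference varied with time, by the interaction test, for H2afj (adjusted p 0.0103), Hist1h3a (0.0319), H3f3a (0.0330) and H2afx (0.0390); the values by group are given with the results.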

How the results depend on the processing

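Over the named members, 998 of 1048 values under other settings kept their side of the threshold, 39 lost a call, 11 gained one and no called value reversed, while 36 uncalled values changed sign. Leaving out single libraries kept the side of 4420 of 4560, and 61 uncalled values changed sign. At ZT0 (0 members called) DESeq2 called 4 and the replicate block 3; at ZT12 (0) limma-voom called 1; over all times (0) DESeq2 called 2 and the block 1. At ZT18 (3) RLE scaling, library size alone, the low-rRNA term and the fit without single-sex libraries each gave 0. For genotype by time (4), library size alone gave 2, and leaving out the low-rRNA libraries, the low-rRNA term and leaving out single-sex libraries each gave 0. For time in KO (5), DESeq2 gave 9, leaving out the low-rRNA libraries 1, the low-rRNA term 3 and leaving out single-sex libraries 3. Without Hist1h1c the replication-dependent share was 0.0109% and without H3f3b the variant share was 0.0847%. The cause of these changes was not tested, beyond fewer samples in the fits that leave libraries out.

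Leaving out each library in turn gave 0 to 9 calls at ZT0, 0 to 0 at ZT6, 0 to 1 at ZT12, 0 to 3 at ZT18, 0 to 5 over all times, 0 to 6 for genotype by time, 3 to 7 for time in KO and 1 to 2 for time in WT. The ZT18 call was lost in 29 of 38 such fits for H3f3a, 23 for H2afj and 20 for H2afy. Equal replicate numbers did not pair the libraries: over 17 pairs, the correlations of their deviations from the group means ran from -0.0908 to 0.240, so the block is a check only. Without the low-rRNA libraries ZT18 could not be fitted. Another scaling moved the median of all genes by at most 0.1 on the log2 scale. Low counts limit most replication-dependent genes, since 33 of 50 tested stood at 0 in some library.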
